A study of Mus musculus with 5 samples.

Results

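Expression of the proteasome genes was followed in colon tumors of 5 mice. Table entries were taken whose symbol began with Psma, Psmb, Psmc, Psmd or Psme followed by a digit, without those named as pseudogenes, and where a symbol repeated the entry with the highest mean was kept. This gave 45 genes of the 52143 entries in the deposited table. One of them, Psmc3ip, is no subunit: its product works in meiotic recombination and carries the name as a partner of Psmc3. The other 44 encode subunits or activators of the proteasome.

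The Control mice were littermates that carried only the Cre-ERT recombinase under the promoter of Villin1, which is active in intestinal epithelium. The SIGLEC12 mice carried in addition 1 floxed allele of human SIGLEC12 at the ROSA26 locus, which that recombinase switches on after tamoxifen. All mice were female, 8 weeks old at the start, and received tamoxifen for 5 days, azoxymethane (AOM, a colon carcinogen) at 10 mg/kg and 4 cycles of dextran sulfate sodium (DSS, toxic to the colon epithelium) at 2.0% for 5 days each, with 14 days of recovery, and tumors were taken on day 87. The Control group held replicates 1 and 4 (n = 2), and the SIGLEC12 group replicates 2, 3 and 4 (n = 3). The switch acts in epithelial cells alone, whereas the RNA came from whole tumor pieces.

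The proteasome is the cell's main machine for degrading proteins tagged with ubiquitin. Its 20S core is a barrel of stacked rings, with outer rings of alpha subunits that gate the entry and inner rings of beta subunits, of which Psmb5, Psmb6 and Psmb7 carry the cutting sites. The 19S particle caps the barrel, where ATPases (Psmc genes) unfold the substrate and non-ATPase subunits (Psmd genes) bind and remove ubiquitin. Interferon gamma induces 3 alternative catalytic subunits, Psmb8, Psmb9 and Psmb10, which replace Psmb5, Psmb6 and Psmb7 to form the immunoproteasome, together with Psme1 and Psme2, the subunits of the PA28 activator. Immune cells express the immunoproteasome at high levels, and it favors the cutting of peptides that fit MHC class I molecules.

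Values were deposited as log2(TPM + 1), where TPM is the abundance of a gene's transcripts, corrected for their length, as a share of a total that is the same in every sample. Read depth is unknown, as TPM does not keep it. Protein-coding genes took from 5.7% to 6.73% of the TPM total in the Control samples and from 8.75% to 9.72% in the SIGLEC12 samples, so differences are given as deposited, and after bringing every sample to 1 common protein-coding total, called rescaling below. The pieces also differed in make-up. Summed TPM of 8 markers of squamous epithelium was 2996 in Control replicate 1 and from 406 to 1125 in the other 4 samples, and 13 markers of columnar epithelium, the lining that the colon label implies, summed to 455 in Control replicate 1 and from 1282 to 2057 elsewhere. Of the squamous markers 6 were highest in Control replicate 1, and the other 2, Krt13 and Krt4, in SIGLEC12 replicate 2. Krt4 was lowest in Control replicate 1. The columnar markers were lowest in Control replicate 1 except Car1 and Slc26a3. The part of these tissue differences in the results below was not tested. In pieces of tissue fewer cells of a type and less RNA per cell cannot be told apart.

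Of the 44 subunit genes, 41 reached a TPM of at least 1 in at least 2 samples and were tested with limma among 10338 genes. Psmd10 and Psmb9 reached that level only through SIGLEC12 samples. The 3 subunit genes below it were Psma8, a testis form of an alpha subunit, Psmb11, the catalytic subunit of the thymus, and Psme2b, a copy of Psme2, and none of them exceeded a TPM of 0.217 in any sample. Psmc3ip was also below it, with a highest TPM of 0.354. Entries named as pseudogenes numbered 4, with values of at most 0.0181 on that log2 scale. A second identifier of Psmd10 held the same values as the first, so its reads could belong to either.

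No proteasome gene differed between SIGLEC12 and Control past the threshold of an adjusted p under 0.05 and a 2-fold change, with 0 of 41 higher and 0 lower by limma with Benjamini-Hochberg adjustment, where 0% of all tested genes passed in either direction. At an unadjusted limma p of at most 0.05, 30 of the 41 were higher in SIGLEC12 and 0 were lower, and over all tested genes 33.4% were higher and 0.909% lower. After rescaling 3 of 41 were higher at that p and 0 lower, beside 4.45% and 6.31% of all genes. In the values as deposited 39 of 41 were higher in every SIGLEC12 sample than in both Control samples, as were 54.1% of all genes. After rescaling this held for 12 of 41, beside 15.6% of all genes, and 1 of 41, Psme4, was lower in every SIGLEC12 sample, beside 16.8% of all genes. With the trend of the rescaled values with transcript length also removed, 0 of 41 had an unadjusted limma p of at most 0.05 and were higher, beside 3.02% of all genes. Without Control replicate 4, 4 of 41 passed the threshold as higher, beside 9.31% of all genes, and 21 of 41 had the unadjusted p, beside 42.7%. Most proteasome genes were thus higher in SIGLEC12 as deposited, and the counts at a p threshold depended on the scaling and on single samples. The median log2 fold change of the 38 tested genes other than Psmb8, Psmb9 and Psmb10 moved less with single samples. It was 0.57 as deposited, beside 0.38 for all genes, and from 0.50 to 0.64 when 1 sample was left out.

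**Figure D1:**
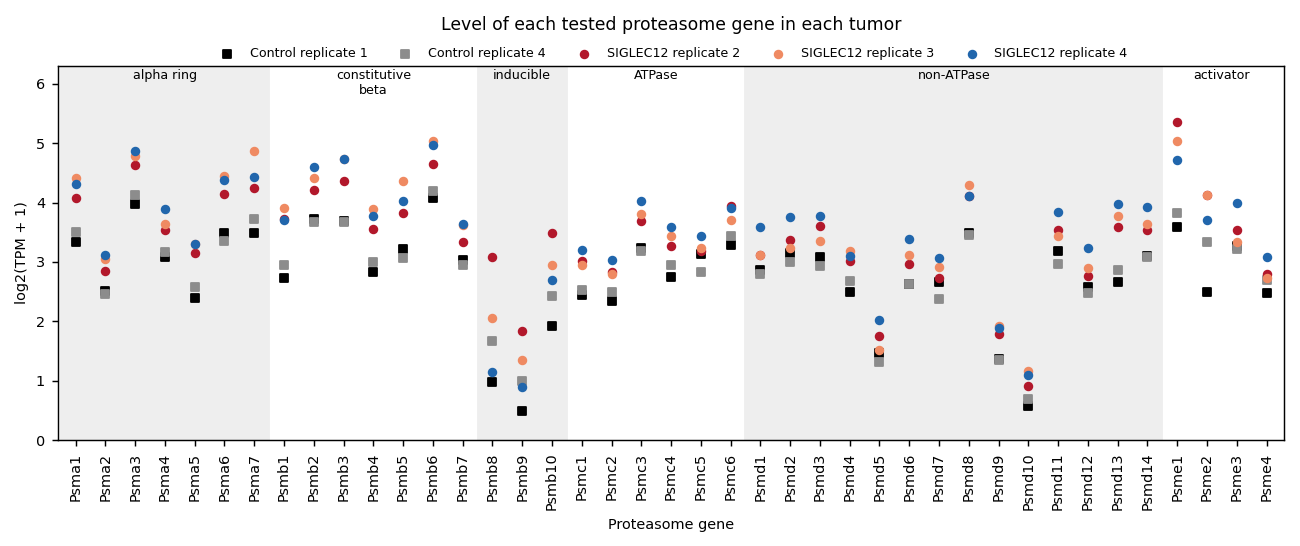
Level of each of the 41 tested proteasome genes, as log2(TPM + 1) on the vertical axis, by gene on the horizontal axis, with 1 symbol per tumor (squares, Control; circles, SIGLEC12). The SIGLEC12 samples lie above both Control samples in 39 genes, and the 2 exceptions are Psmb8 and Psmb9, where the circles are spread widely.

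The constitutive 20S core was compared first. All 7 genes of the alpha ring, Psma1 to Psma7, were higher in each SIGLEC12 sample, with a median log2 fold change of 0.77, and all 7 constitutive beta genes were too, with a median of 0.83, on the log2(TPM + 1) scale of the deposited values. Over all tested genes, 54.1% were higher in every SIGLEC12 sample as deposited, and the median was 0.38. After rescaling, the medians were 0.29 and 0.33, against 0.01 for all genes, with 5 of 7 and 4 of 7 genes higher in every SIGLEC12 sample, beside 15.6% of all genes. None of the 14 genes passed the threshold (limma adjusted p from 0.0974 to 0.121).

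Within the alpha ring, Psma7 had the highest log2 fold change, level with Psma6 at the precision given. Its level was 3.49 and 3.73 in Control replicates 1 and 4 and 4.25, 4.86 and 4.43 in SIGLEC12 replicates 2, 3 and 4. The groups did not overlap, and the log2 fold change was 0.91 (SE 0.26, adjusted p = 0.0976 by limma). Psma2 had the lowest, with levels of 2.51 and 2.46 in Control and 2.85, 3.05 and 3.11 in SIGLEC12. That difference was 0.52 (SE 0.18, adjusted p = 0.112 by limma), and 0.05 after rescaling. The other 5 alpha genes lay between 0.56 (Psma4) and 0.91 (Psma6). Psma2 was also the gene of the core with the longest transcript, at 2911 bases.

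Among the beta subunits that do not cut, Psmb1 differed most, with levels of 2.73 and 2.95 in Control and 3.73, 3.91 and 3.71 in SIGLEC12. All SIGLEC12 samples lay well above both Control samples. The log2 fold change was 0.94 (SE 0.19, adjusted p = 0.0974 by limma), and it was 0.45 after rescaling, with an unadjusted limma p of 0.0399 and an adjusted p of 0.457. Psmb3 and Psmb4 differed by 0.92 and 0.83. Psmb2 differed least of these, by 0.72 (SE 0.22, adjusted p = 0.101 by limma) and by 0.20 after rescaling.

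The constitutive cutting subunits were compared next. Psmb5, which cuts after hydrophobic residues, stood at 3.22 and 3.07 in Control and at 3.82, 4.36 and 4.03 in SIGLEC12. The groups did not overlap, with a log2 fold change of 0.93 (SE 0.23, adjusted p = 0.0974 by limma). Psmb6, which cuts after acidic residues, stood at 4.08 and 4.19 against 4.65, 5.03 and 4.97. It had the highest level of the 14 core genes in both groups, with a mean TPM of 16.6 in Control and 28.7 in SIGLEC12, and a log2 fold change of 0.75 (SE 0.23, adjusted p = 0.101 by limma). Psmb7, which cuts after basic residues, stood at 3.04 and 2.95 against 3.33, 3.63 and 3.64, a log2 fold change of 0.54 (SE 0.20, adjusted p = 0.121 by limma). After rescaling these differences were 0.42, 0.22 and 0.05, and of the 3 genes only Psmb5 had groups that did not overlap.

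The 19S particle differed less than the core. All 20 of its genes were higher in every SIGLEC12 sample as deposited, beside 54.1% of all genes, with a median log2 fold change of 0.51. At an unadjusted limma p of at most 0.05, 13 of 20 were higher, beside 33.4% of all genes. After rescaling the median was 0.04, close to the 0.01 of all genes, and 14 of 20 were higher on average, beside 51.1% of all genes. Only Psmd10 and Psmd13, 2 of the 20, were then higher in every SIGLEC12 sample, a share below the 15.6% of all genes. Psmd10 had reached the filter only through SIGLEC12 samples, which favors its place in such counts. The medians were 0.53 for the 6 ATPases and 0.51 for the 14 non-ATPase genes, and 0.05 and 0.04 after rescaling.

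Of the ATPases, Psmc3 had the highest log2 fold change at 0.63 (SE 0.20, adjusted p = 0.104 by limma) and Psmc5 the lowest. Psmc5 was at 3.14 and 2.83 in Control and at 3.18, 3.23 and 3.44 in SIGLEC12, so that Control replicate 1 nearly reached the SIGLEC12 samples. Its log2 fold change of 0.30 (SE 0.20, adjusted p = 0.295 by limma) became -0.19 after rescaling, and 0.15 without Control replicate 4.

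Psmd13, a scaffold subunit of the lid, stood apart from the other non-ATPase genes. It was at 2.67 and 2.87 in Control and at 3.58, 3.78 and 3.98 in SIGLEC12. Every SIGLEC12 sample exceeded both Control samples, by a log2 fold change of 1.01 (SE 0.21, adjusted p = 0.0974 by limma). After rescaling the groups still did not overlap, at 3.08 and 3.08 against 3.44, 3.66 and 3.71, a difference of 0.52 with an unadjusted limma p of 0.0199 and a limma adjusted p of 0.457. Psmd7, also of the lid, had the lowest value among the non-ATPase genes, level with Psmd2 and Psmd5 at the precision given, 0.38 (SE 0.20, adjusted p = 0.204 by limma), -0.09 after rescaling and 0.24 without Control replicate 4. Psmd14, the lid enzyme that removes ubiquitin chains, differed by 0.61 (SE 0.21, adjusted p = 0.109 by limma), and Psmd4, a ubiquitin receptor, by 0.51 (SE 0.18, adjusted p = 0.114 by limma). Rescaling brought these to 0.11 and 0.03. Psmd5, Psmd9 and Psmd10, whose products help to assemble the base of the particle and leave it afterwards, had the lowest levels of the 19S genes, with mean TPM in Control of 1.61, 1.56 and 0.558, against 4.74 to 10.1 for the other non-ATPase genes.

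**Figure D2:**
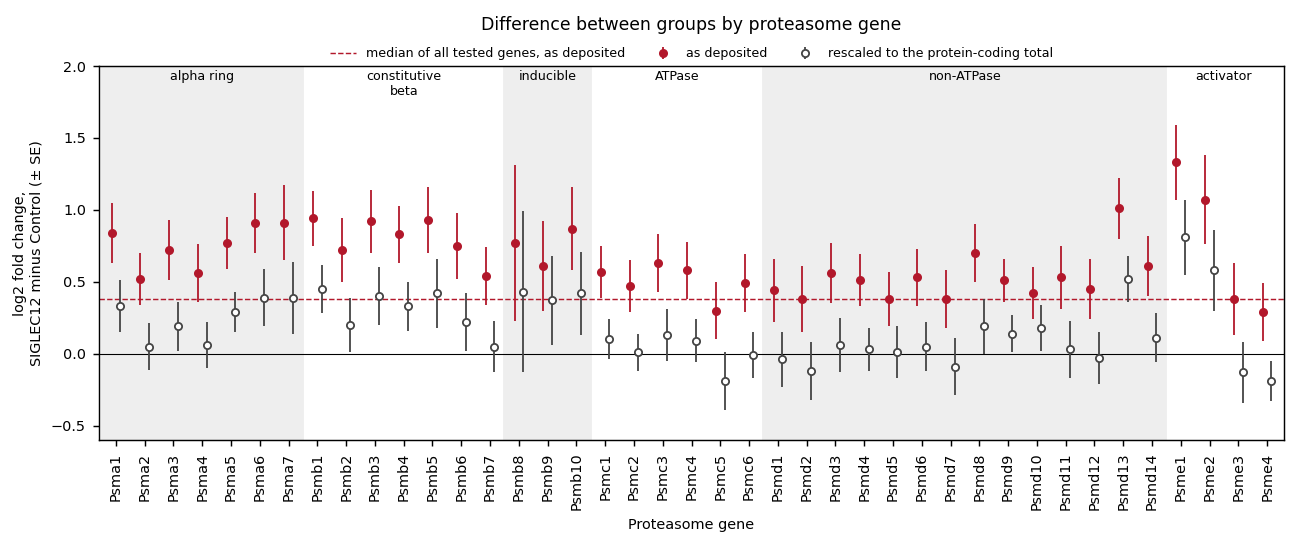
Log2 fold change of SIGLEC12 minus Control for each of the 41 tested proteasome genes (vertical axis, bars show SE), as deposited (filled) and rescaled (open), by gene on the horizontal axis and grouped by part of the complex. The dashed line marks the median of all tested genes, 0.38, and Psme1, Psme2 and Psmd13 lie at or above 1 as deposited.

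The mean level of the 14 constitutive core genes was set against that of the 20 genes of the 19S particle within each sample, a comparison chosen after the values were seen and given without a test. The core exceeded the 19S particle by 0.63 and 0.72 in Control replicates 1 and 4, and by 0.84, 1.11 and 0.83 in SIGLEC12 replicates 2, 3 and 4. The groups did not overlap, and the difference between them was 0.25, with a SD of 0.06 in Control and 0.16 in SIGLEC12. After rescaling the same difference was 0.21. Transcript length moved with this pattern. The core genes had a median transcript length of 1120 bases and the 19S genes one of 1614, against 2592 for all tested protein-coding genes, and across the 38 tested subunit genes other than Psmb8, Psmb9 and Psmb10 shorter transcripts had larger log2 fold changes (Spearman's rho -0.71, across genes that share the same 5 libraries). When the trend of the values with transcript length over all tested protein-coding genes was taken out of the rescaled values, the median was 0.14 for the core and -0.02 for the 19S particle. Its further part in the result was not tested.

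**Figure D3:**
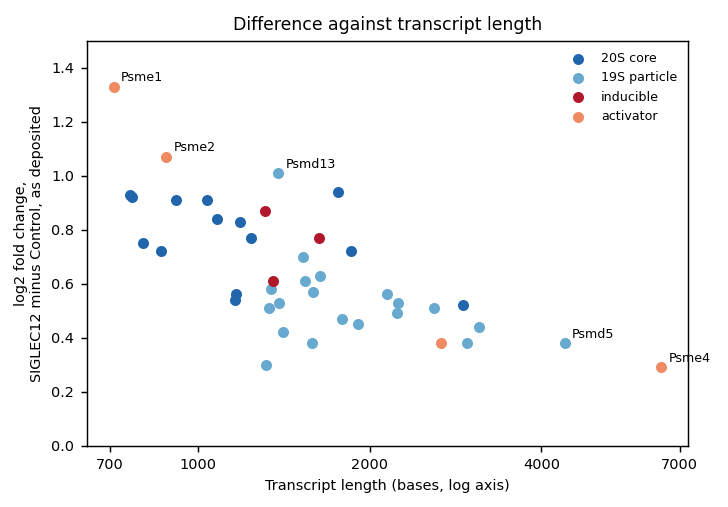
Log2 fold change of SIGLEC12 minus Control as deposited (vertical axis) against transcript length in bases (horizontal log axis) for the 41 tested proteasome genes, colored by part of the complex. Psme1 and Psme2, with the shortest transcripts of the activators, have the highest values, and Psme4, with the longest, the lowest.

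The 3 inducible subunits showed another pattern. Their median log2 fold change was 0.77 as deposited and 0.42 after rescaling, and none of the 3 passed the threshold, but the samples within a group differed widely. Psmb8, which replaces Psmb5, was at 0.98 and 1.67 in Control replicates 1 and 4, and at 3.09, 2.06 and 1.15 in SIGLEC12 replicates 2, 3 and 4. SIGLEC12 replicate 2 was the highest and SIGLEC12 replicate 4 lay between the Control samples, so the groups overlapped. The log2 fold change was 0.77 (SE 0.54, adjusted p = 0.315 by limma). It was 0.28 without SIGLEC12 replicate 2, 0.43 without Control replicate 1 and 1.25 without SIGLEC12 replicate 4.

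Psmb9, which replaces Psmb6, was at 0.49 and 1.0 in Control and at 1.83, 1.34 and 0.90 in SIGLEC12. Here too SIGLEC12 replicate 4 fell between the Control samples. The log2 fold change was 0.61 (SE 0.31, adjusted p = 0.194 by limma), 0.38 without SIGLEC12 replicate 2 and 0.36 without Control replicate 1. Psmb10, which replaces Psmb7, was at 1.92 and 2.43 in Control and at 3.49, 2.95 and 2.70 in SIGLEC12. Its groups did not overlap, with a log2 fold change of 0.87 (SE 0.29, adjusted p = 0.108 by limma), but they did after rescaling, where the difference was 0.42. All 3 genes had their highest value in SIGLEC12 replicate 2 and their lowest in Control replicate 1. Of the 38 other tested subunit genes, only 2, Psme1 and Psmc6, had their highest value in SIGLEC12 replicate 2. For 13 it was in SIGLEC12 replicate 3 and for 23 in SIGLEC12 replicate 4. Psme1 is 1 of the PA28 genes, which interferon gamma also induces. The mean of Psme1 and Psme2 was 4.74, 4.58 and 4.21 in SIGLEC12 replicates 2, 3 and 4, so it too was highest in replicate 2. After rescaling the inducible genes still had their highest value in SIGLEC12 replicate 2. Of the other 38, the same 2 were highest in SIGLEC12 replicate 2, 17 in SIGLEC12 replicate 3, 13 in SIGLEC12 replicate 4, 5 in Control replicate 1 and 1 in Control replicate 4.

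Each inducible subunit was then compared with the partner it replaces, as the ratio of their TPM within a sample, which does not depend on how the sample was scaled. Psmb8 was present at 0.118 and 0.295 of the level of Psmb5 in Control replicates 1 and 4, and at 0.575, 0.162 and 0.0788 in SIGLEC12 replicates 2, 3 and 4. SIGLEC12 held both the highest and the lowest ratio of the 5 samples. On the log2 scale the means were -2.42 ± 0.94 (SD, n = 2) and -2.36 ± 1.45 (SD, n = 3), a difference of 0.06 (two-sided exact permutation p = 1, the smallest possible being 0.1). Psmb9 was at 0.0255 and 0.058 of the level of Psmb6 in Control, and at 0.106, 0.0482 and 0.0288 in SIGLEC12. The log2 difference was 0.46 (exact permutation p = 0.6), less than the SD within each group, 0.84 and 0.95. Psmb10 was at 0.388 and 0.657 of the level of Psmb7 in Control, and at 1.13, 0.593 and 0.479 in SIGLEC12, with a log2 difference of 0.44 (exact permutation p = 0.6). Only in SIGLEC12 replicate 2 did an inducible subunit, Psmb10, exceed its partner. Adjusted by Benjamini-Hochberg over the 3 ratios, the exact permutation p values were 1, 0.9 and 0.9, and they do not show that the ratios were alike, since 5 samples cannot give a p under 0.1.

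**Figure D4:**
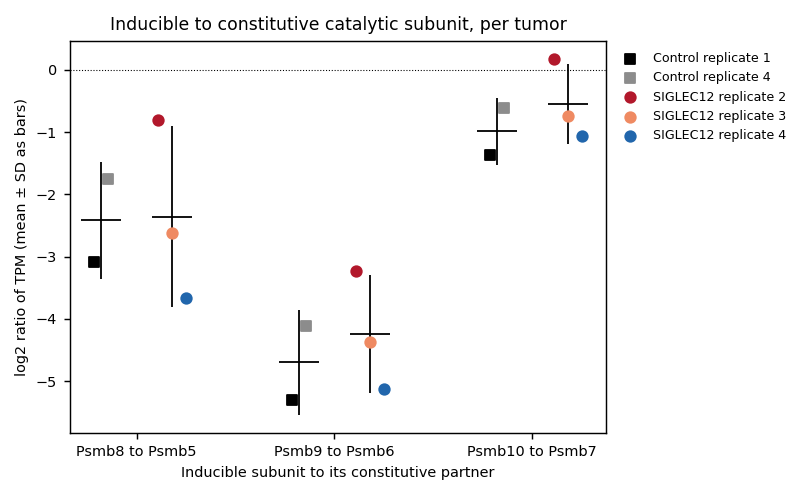
Log2 ratio of the TPM of each inducible catalytic subunit to its constitutive partner (vertical axis) for 3 pairs (horizontal axis), with 1 symbol per tumor and bars at the mean ± SD of each group. The groups overlap in all 3 pairs, and SIGLEC12 replicate 2 is the highest in each.

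The mean level of the 3 inducible genes minus that of the 38 other tested subunit genes was -1.76 and -1.23 in Control replicates 1 and 4, and -0.64, -1.44 and -2.08 in SIGLEC12 replicates 2, 3 and 4. The groups overlapped and differed by 0.11, less than the SD of 0.37 in Control and 0.72 in SIGLEC12. Without SIGLEC12 replicate 2 the difference was -0.26, and without Control replicate 1 it was -0.15. The difference in change between the inducible genes and the other subunits was thus smaller than the spread between samples, and its sign rested on single samples.

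Among the activators, the PA28 genes had the largest log2 fold changes of all 41 proteasome genes. Psme1 was at 3.59 and 3.82 in Control and at 5.35, 5.03 and 4.72 in SIGLEC12. Every SIGLEC12 sample exceeded both Control samples, by 1.33 (SE 0.26, adjusted p = 0.0974 by limma), with a mean TPM of 12.1 in Control and 32.3 in SIGLEC12. After rescaling the groups still did not overlap, and the difference was 0.81, with an unadjusted limma p of 0.0232 and a limma adjusted p of 0.457. Psme2 was at 2.49 and 3.34 in Control and at 4.12, 4.12 and 3.71 in SIGLEC12, with a log2 fold change of 1.07 (SE 0.31, adjusted p = 0.0976 by limma). Control replicate 1 weighed on it, as the value was 0.65 without that sample, and after rescaling the groups overlapped with a difference of 0.58. Psme1 and Psme2 lie near each other on chromosome 14, at 55578123 to 55581529 and 55587441 to 55591113 (GRCm38). The mean level of the PA28 pair minus that of the 14 constitutive core genes was -0.22 and 0.26 in Control replicates 1 and 4, and 0.86, 0.40 and 0.09 in SIGLEC12 replicates 2, 3 and 4. SIGLEC12 replicate 4 lay between the Control samples here, so the groups overlapped, and they differed by 0.43 with a SD of 0.34 in Control and 0.39 in SIGLEC12. The other activators differed less. Psme3, the nuclear PA28 gamma, which interferon does not induce, was at 3.27 and 3.21 against 3.54, 3.33 and 3.99, a log2 fold change of 0.38 (SE 0.25, adjusted p = 0.288 by limma). Psme4, which encodes the PA200 activator, was at 2.48 and 2.69 against 2.79, 2.73 and 3.09, a log2 fold change of 0.29 (SE 0.20, adjusted p = 0.310 by limma). Both were lower in SIGLEC12 after rescaling, at -0.13 and -0.19. As deposited, the values were 0.19 and 0.18 without SIGLEC12 replicate 4.

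Genes that work beside the immunoproteasome in MHC class I presentation and interferon response were then followed. Of 11 presentation genes, 10 were tested, and 0 passed the threshold. At an unadjusted limma p of at most 0.05, 5 of 10 were higher, beside 33.4% of all genes, and 0 were lower. The 5 were Erap1, H2-D1, Calr, Canx and Pdia3. After rescaling 1 of 10, Pdia3, was higher at that p, beside 4.45% of all genes. The median log2 fold change was 0.84 as deposited and 0.36 after rescaling. Calr, Canx and Pdia3 had their highest value in SIGLEC12 replicate 4. The genes described next were not among those 5. Tap1, which pumps peptides into the endoplasmic reticulum, was at 0.72 and 1.19 in Control and at 2.33, 1.45 and 0.75 in SIGLEC12, with SIGLEC12 replicate 4 close to Control replicate 1. Its log2 fold change was 0.56 (SE 0.44, adjusted p = 0.367 by limma), and 0.15 without SIGLEC12 replicate 2. B2m, the shared light chain of MHC class I, was at 4.30 and 5.34 against 6.96, 5.83 and 4.78, again with SIGLEC12 replicate 2 the highest and SIGLEC12 replicate 4 between the Control samples. Its log2 fold change of 1.04 (SE 0.65) became 0.49 without SIGLEC12 replicate 2 and 0.52 without Control replicate 1. Tap2 and Tapbp, the latter the chaperone that loads peptides, had the same order of samples, and differed by 0.42 (SE 0.30) and 0.68 (SE 0.39), or by 0.18 and 0.26 without Control replicate 1. Nlrc5, the activator of MHC class I transcription, did not reach the filter and was at most 0.68, in SIGLEC12 replicate 2.

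Of 18 interferon response genes, 10 were tested and 0 passed the threshold. At an unadjusted limma p of at most 0.05, 1 of 10 was higher and 0 lower, a share below the 33.4% of all genes that were higher, and after rescaling it was 0 of 10, beside 4.45%. The median log2 fold change was 0.59, and 0.26 after rescaling. Irf1, a transcription factor that interferon gamma induces, was at 1.95 and 2.92 in Control and at 3.57, 3.20 and 2.77 in SIGLEC12. Its groups overlapped, as SIGLEC12 replicate 4 lay between the Control samples, with a log2 fold change of 0.74 (SE 0.36, adjusted p = 0.182 by limma). It was 0.26 without Control replicate 1 and 0.28 after rescaling. SIGLEC12 replicate 2 held the highest value in 7 of the 10 presentation genes and 8 of the 10 interferon genes, as it did in all 3 inducible subunits. The share of all tested genes that were highest in that sample was not computed. Of the interferon genes, Igtp and Isg15 reached the filter only through SIGLEC12 replicates 2 and 3.

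**Figure D5:**
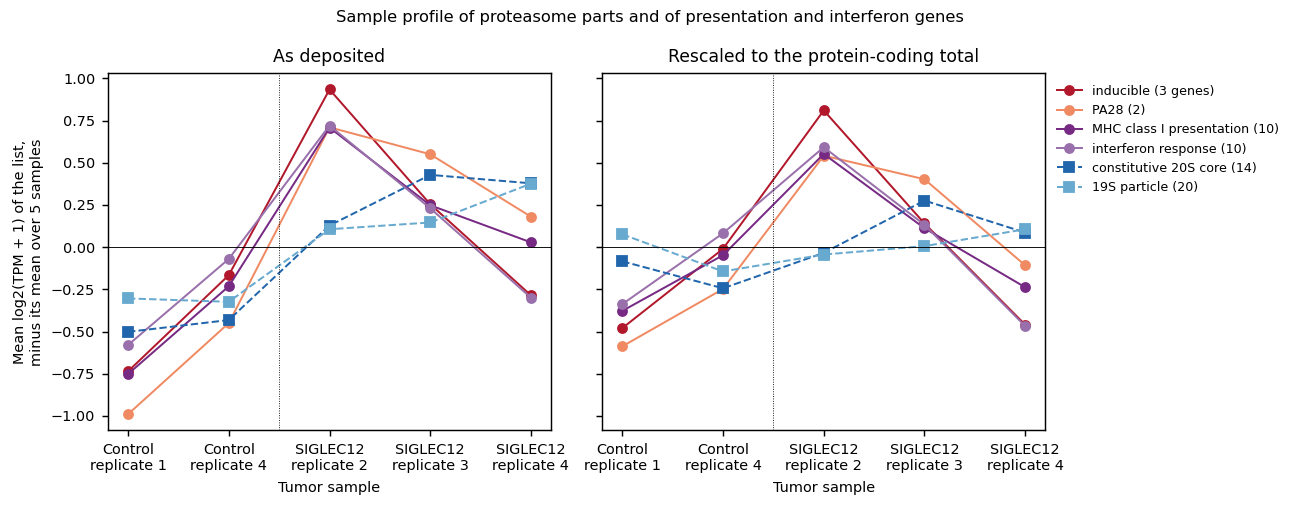
Mean log2(TPM + 1) of each gene list minus its mean over the 5 samples (vertical axis) by tumor sample (horizontal axis), as deposited (left) and rescaled (right). Lines join the values of 1 list and imply no order of samples. The inducible, PA28, presentation and interferon lists peak in SIGLEC12 replicate 2, whereas the 19S particle does not.

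Markers of other cells were measured beside the inducible genes. Of 6 markers of leukocytes, summed TPM was 4.98 and 3.92 in Control and 8.66, 9.9 and 3.74 in SIGLEC12 replicates 2, 3 and 4, and the defining marker Ptprc was under a TPM of 1 in all 5 samples. Of 10 myeloid markers the sum was 14.2 and 6.22 against 27, 30.5 and 7.63. The 8 markers of T and NK cells, each under a TPM of 1 in every sample, summed to 0.412 and 0.557 against 1.14, 0.787 and 0.419. The 6 markers of B and plasma cells summed to 0.147 and 0.301 against 1.5, 0.989 and 0.74. The lymphocyte sums were thus highest in SIGLEC12 replicate 2 and the leukocyte and myeloid sums in SIGLEC12 replicate 3. Gene by gene, 2 of the 6 leukocyte markers (Ptprc and Laptm5), 5 of the 10 myeloid markers (Csf1r, Itgam, C1qa, C1qb and C1qc) and 6 of the 8 T and NK cell markers were highest in SIGLEC12 replicate 2, as the inducible genes were. The other 4 leukocyte and 5 myeloid markers, Lyz2 among them, were highest in SIGLEC12 replicate 3. Of the 6 B and plasma cell markers, 2 were highest in SIGLEC12 replicate 2 and 2 in Control replicate 4. SIGLEC12 replicates 3 and 4 held the highest value of 1 each. All of these markers but Jchain were under a TPM of 1 in every sample, so Jchain weighed most in their sum. Fibroblast markers were highest in SIGLEC12 replicate 2, with a sum of 57.9 for 6 genes against 8.71 to 24.4 in the other samples, and so were the 5 smooth muscle markers, at 86.6 against 36.1 to 40.5, and the 4 endothelial markers, at 3.71 against 0.612 to 2.01. Their part in the level of the inducible genes was not tested.

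Genes that assemble, assist or control the proteasome were compared as a list. Of 24 tested, 0 passed the threshold. At an unadjusted limma p of at most 0.05, 9 of 24 were higher, a share near the 33.4% of all genes, and 0 were lower. After rescaling it was 0 of 24, beside 4.45%. The median log2 fold change was 0.39, beside 0.38 for all genes, and -0.01 after rescaling. Pomp, the chaperone that completes the core and is needed for the immunoproteasome, was at 3.28 and 3.14 in Control and at 3.77, 3.97 and 3.86 in SIGLEC12. The groups did not overlap, with a difference of 0.66 (SE 0.19, adjusted p = 0.0988 by limma), and they did after rescaling, at 0.15. Psmg1 to Psmg4, chaperones of the alpha ring, differed by 0.57, 0.40, 0.30 and 0.35 as deposited. Adrm1, the ubiquitin receptor that is also called Rpn13, differed by 0.60 (SE 0.19, adjusted p = 0.104 by limma). Usp14, a deubiquitinase on the 19S particle, differed by 0.42 (SE 0.25, adjusted p = 0.253 by limma), and by 0.20 without Control replicate 1. Nfe2l1 encodes the factor that raises transcription of proteasome genes when the proteasome fails, and it was at 3.20 and 3.44 in Control and at 3.86, 3.33 and 3.85 in SIGLEC12. Its groups overlapped, with a log2 fold change of 0.36 (SE 0.25, adjusted p = 0.3 by limma) and -0.14 after rescaling. The related Nfe2l2 differed by 0.41 (SE 0.20, adjusted p = 0.191 by limma), and by 0.27 without Control replicate 1.

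Promoter sequences of the members were read from RefSeq on GRCm38.p6, as windows from 250 bases before to 50 after each annotated start, which were found for 37 of the 44 subunit genes in 40 windows. The motifs below were searched on both strands: the antioxidant response element TGACNNNGC, to which Nfe2l1 and Nfe2l2 bind, the interferon gamma site TTCNNNGAA, the interferon-stimulated response element (a pair of GAAA runs with 2 free bases between them), and the CCAAT box. No window was found for Psma8, Psmb1, Psmb2, Psmb7, Psmc3, Psmd3 and Psmd7, so these were not searched. No match in the windows overlapped a match of another motif. The antioxidant element was in 15% of the 40 windows and in 12.4% of all 32851 windows, the interferon gamma site in 5% against 8.3%, the interferon-stimulated element in 10% against 3.44%, and the CCAAT box in 35% against 37.4%. The interferon-stimulated element was in windows of Psmb3, Psmd4, Psmd9 and Psme1, and the interferon gamma site in those of Psmb8 and Psmd2. These carriers thus included constitutive subunits. Psmb10 and Psme2 held neither interferon motif in their windows, which says only that these letters are absent there. A match is a description of the letters and not a site of binding.

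Of the 3 constitutive cutting subunits, Psmb7 had no window and was not searched. Psmb5 and Psmb6 both held the antioxidant element in theirs. The stretches upstream of their starts and outside annotated exons are shown because they belong to the constitutive partners compared above. Capitals mark the element.
Psmb5, GRCm38.p6 chr14:54618023-54618245, minus strand: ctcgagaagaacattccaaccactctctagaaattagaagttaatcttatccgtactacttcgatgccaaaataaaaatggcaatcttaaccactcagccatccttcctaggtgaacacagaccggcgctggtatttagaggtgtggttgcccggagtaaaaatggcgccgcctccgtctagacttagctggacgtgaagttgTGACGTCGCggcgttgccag
Psmb6, GRCm38.p6 chr11:70525107-70525356, plus strand: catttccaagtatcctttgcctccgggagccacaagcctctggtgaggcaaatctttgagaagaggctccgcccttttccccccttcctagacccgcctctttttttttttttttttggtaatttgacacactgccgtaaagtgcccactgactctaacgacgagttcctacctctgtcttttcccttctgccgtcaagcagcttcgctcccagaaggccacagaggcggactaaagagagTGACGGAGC

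The other members with that element were Psmc6, Psmd9, Psmd12 and Psme4, whose log2 fold changes of 0.49, 0.51, 0.45 and 0.29 as deposited lay below those of Psmb5 and Psmb6. Windows of 30 bases around the element are shown for these 4 genes so that their letters can be set beside those of the core genes. The windows of Psmd9 and Psme4 lie inside the GENCODE spans of these genes, and those of Psmc6 and Psmd12 lie before the spans.
Psmc6, GRCm38.p6 chr14:45329586-45329615, plus strand: gccagccagtaGCTAAGTCAggcattgctc
Psmd9, GRCm38.p6 chr5:123228148-123228177, plus strand: tatctagccggTGACCCCGCccacttccaa
Psmd12, GRCm38.p6 chr11:107479278-107479307, plus strand: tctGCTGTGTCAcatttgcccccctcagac
Psme4, GRCm38.p6 chr11:30771757-30771786, plus strand: gcgctgcggctGCAGCGTCAccagaagagc

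Of the genes that interferon gamma induces, Psmb8 held the interferon gamma site and Psme1 the interferon-stimulated element. The Psme1 match lies just after the RefSeq start of that gene, which is inside the span given above from GENCODE. The matches shown for Psmb8 and Psmb9 lie before the RefSeq starts but also inside the GENCODE spans of those genes. Psmb9 held neither interferon motif in its window. Its CCAAT box lies in the stretch it shares with Tap1, whose start is 226 bases away on the other strand. These 3 windows of 30 bases are shown because the groups overlapped in Psmb8 and Psmb9, and Psme1 had the largest log2 fold change.
Psmb8, GRCm38.p6 chr17:34198087-34198116, plus strand: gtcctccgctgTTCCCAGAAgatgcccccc
Psme1, GRCm38.p6 chr14:55578493-55578522, plus strand: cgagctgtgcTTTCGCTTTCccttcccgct
Psmb9, GRCm38.p6 chr17:34187322-34187351, minus strand: cgcgcagccgctgATTGGaaagccgagccc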

How the data were processed

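The log2 values deposited by the authors covered 52143 mouse genes with Ensembl identifiers in the 5 tumors, and 0 value columns could not be mapped. Undoing log2(value + 1) gave column totals from 999999 to 1000001, which identifies the unit as log2(TPM + 1). The submitters' processing notes name kallisto 0.45.0 and GRCm38, whereas the study's methods name a human reference. The annotation release and the pooling of technical libraries are not given in the sources used here. Biotypes, coordinates and transcript lengths (median over the coding transcripts of the basic set) came from GENCODE release M21 on GRCm38, which held 98.45% of the gene identifiers.

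SIGLEC12 was compared with Control by limma 3.58.1 (R 4.3.3, empirical Bayes with trend) on log2(TPM + 1), a scale on which low genes show too small a change, over 10338 genes with a TPM of at least 1 in at least 2 samples, with Benjamini-Hochberg adjustment over all of them. The threshold was an adjusted p under 0.05 and 2-fold, and the fit was tested on simulated data. The knock-in label was not checked, as human SIGLEC12 was not analysed here. Nothing says whether samples are more than 1 tumor per mouse, and p-values measure the spread between these samples. Ratios within a sample were compared by a two-sided exact permutation test over the 10 splits of 5 samples. Rescaling multiplied the TPM of each sample to give the mean protein-coding total, and the length trend was a lowess curve (span 0.3) of each sample's deviation against transcript length. Members, gene lists and alternatives were chosen with earlier results of these data known. Named genes were the inducible subunits, their partners, the activators, Psmd14, Psmd4, the highest and lowest of each group of subunits, untested members and chosen genes of the other lists. A named gene of the other lists is not reported here. Alternatives were other pseudocounts, filters and scalings, and leaving out each sample.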

Additional observations from a re-analysis of the deposited data

How the results depend on the processing

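No paired analysis was possible because replicate 4 is the only number that both groups hold. Leaving out a Control sample leaves 1, assumed to vary like the other group.

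The number of proteasome genes past an adjusted limma p of 0.05 and 2-fold, 0 as reported, ranged from 0 to 4 when 1 sample was left out and was 0 under every other alternative run. The 4, without Control replicate 4, were Psme1 (1.44), Psme2 (1.5), Psmb1 (1.05) and Psmd13 (1.11), where 9.31% of all genes were called higher. The 30 genes higher at an unadjusted limma p of at most 0.05 became 3 with rescaling, 2 with median-ratio size factors, 2 with quantile normalization and 0 with the length trend also removed, which was chosen after seeing the data. Without 1 sample they were from 17 (Control replicate 1 left out, beside 13.9% of all genes) to 23. The median log2 fold change of the 38 other subunits, 0.57, was 0.66 with a pseudocount of 0.1 and 0.11, 0.09, 0.08 and -0.01 under those 4 scalings, in that order. Psmb8, Psmb9 and Psmb10 had a median of 0.77, which was 1.03 with that pseudocount and 0.42, 0.41, 0.44 and 0.26 under the 4 scalings. Rescaling moved the median of all genes from 0.38 to 0.01. For the counts at the unadjusted limma p, the share of all genes was not computed with median-ratio factors or quantile normalization. Nor was it computed with a SIGLEC12 sample left out, so those counts cannot be set against all genes.

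The Psmb8 to Psmb5 difference of 0.06 was -0.16 with a pseudocount of 1 and from -0.72 (without SIGLEC12 replicate 2) to 0.72 (without Control replicate 4) when 1 sample was left out. For Psmb9 to Psmb6 the 0.46 was -0.14 with that pseudocount and from -0.14 (without Control replicate 1) to 1.05. For Psmb10 to Psmb7 the range was 0.06 to 0.82. The inducible minus constitutive difference of 0.11 was 0.34 with a pseudocount of 0.1 and 0.25 with rescaling. When 1 sample was left out it ranged from -0.26 (without SIGLEC12 replicate 2) to 0.46. Its size thus depended on the pseudocount as well as on single samples.

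Of the 35 named genes tested, 18 kept their direction under all 12 alternatives. With rescaling, median-ratio factors, quantile normalization and the length trend removed, in that order, the log2 fold changes were -0.13, -0.14, -0.16 and -0.14 for Psme3, -0.19, -0.19, -0.17 and -0.03 for Psme4, -0.19, -0.20, -0.20 and -0.35 for Psmc5, and -0.09, -0.10, -0.07 and -0.21 for Psmd7. They were -0.04, -0.05, -0.03 and -0.01 for Usp14, -0.14, -0.15, -0.19 and -0.08 for Nfe2l1, and -0.09, -0.10, -0.12 and -0.12 for Nfe2l2. Psmg3 reversed with rescaling (-0.02), median-ratio factors (-0.03) and the length trend removed (-0.26). With the length trend removed alone, Psmb6 (-0.01), Psmb7 (-0.13), Psmd14 (-0.01), Psmd4 (-0.12), Psmb2 (-0.03), Psmg1 (-0.03), Psmg2 (-0.11), Psmg4 (-0.27) and Adrm1 (-0.03) reversed. The cause was not tested. The unknown read depth leaves the precision of the lowest genes, Psmb9 and Psmd10 among them, unknown.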
